A study of Homo sapiens with 6 samples.

Results

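The genes described here build the lysosome, acidify it and deliver cargo to it by autophagy. They are 52 genes chosen by name, of 20263 in the deposited table, and each of the 52 had a line there. By role they are 3 transcription factors of the TFE family, 17 lumenal hydrolases and their cofactors, 6 membrane proteins, 10 genes of the vacuolar proton pump (V-ATPase) and 16 autophagy genes. The samples were HCT116 cells, an established human colorectal cancer line with epithelial growth. One group of 3 libraries was labelled CSE treated, and the other group of 3 was labelled WT and carried no named treatment. CSE is not spelled out in the labels and is read here as cigarette smoke extract, since the series title is about smoking. Neither dose, exposure time nor a solvent control is given in the sources used, and the study used a single cell line. The values are TPM, a measure of transcript abundance scaled to the same total in every library. They are corrected for length and so can be compared between genes, except where overlapping genes may split reads.

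As background, lysosomal enzymes are made in the endoplasmic reticulum, tagged with mannose 6-phosphate and carried to an acidic compartment that breaks down proteins, sugars and lipids. The V-ATPase pumps the protons, in a membrane sector (V0) and a cytosolic sector (V1). In macroautophagy a membrane closes around cargo that receptors such as p62 tether to LC3 and GABARAP proteins, and the closed vesicle fuses with the lysosome. TFEB, TFE3 and MITF bind the CACGTG-centred CLEAR element of many genes of this system and are held in the cytosol by mTORC1 when nutrients are plentiful. In the epithelium of the gut, autophagy serves turnover of organelles and defence against microbes.

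Epithelial markers were present, with 1 exception. Of 7 epithelial markers 6 were well expressed (CDH1 to KRT19, 120.3 to 2456 TPM), while the villin gene VIL1 was at or below 0.05 TPM in every library. The 6 macrophage and leukocyte markers were at most 1.45 TPM, and the fibroblast markers other than COL1A1 (36.95 to 37.5 TPM in CSE, 42.6 to 44.8 TPM in WT) at most 0.81 TPM. CSE replicate 3 stood apart from the other CSE samples on the second principal component (9.26% of the variance). Mitochondrially encoded genes took 25.5% to 25.8% of the TPM in CSE, against 27.0% to 30.2% in WT. TPM keeps no depth, so the depth of the libraries is unknown. Whether the replicates were grown as separate cultures is not stated, and the spread behind each p-value may therefore be technical.

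Across the 52 genes, CSE went with small shifts in both directions and no common one. Of 51 genes that passed the filter (3 or more libraries with TPM of 1 or more), 13 were higher in CSE, 14 were lower and 24 did not pass the test (limma, adjusted p under 0.05 over all genes tested). The 27 called are 52.9% of those tested, beside 50.1% of all 12793 genes tested. The higher ones compare with 24.5% of all genes and the lower ones with 25.6%. The median log2 fold change was 0.0017 over the 51 genes and -0.0039 over all genes tested. With mitochondrially encoded genes left out and the rest rescaled, the split was 10 higher and 19 lower. Without WT replicate 3, 8 were higher.

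The changes were also modest in size. A called change of at least 1.2-fold on the log2(TPM + 1) scale was seen for 4 of the 51 genes (7.84%), beside 23.5% of all genes tested. These were NPC2, PSAP, CD68 and CTSB. The median size of a change, without regard to sign, was 0.11 on the log2 scale over the 51 genes and 0.14 over all genes. The values of the groups did not overlap for 34 of the 51 (66.7%), beside 57.4% of all genes tested. Of the 52 genes, 19 overlap another gene of the table, 6 of them on the same strand, where reads could be split. For bulk RNA, fewer cells that express a gene and less RNA per cell cannot be told apart.

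**Figure D1:**
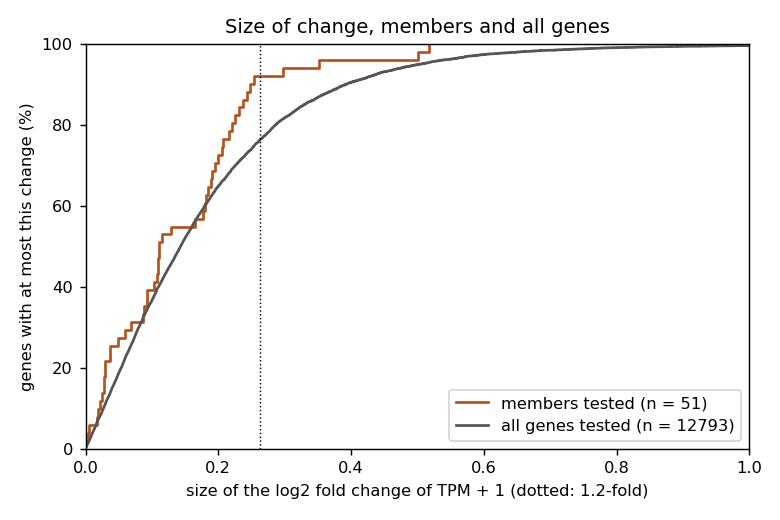
Cumulative share of genes (y axis, %) whose log2 fold change of TPM + 1 between CSE and WT is at most the size on the x axis, for the 51 lysosome and autophagy genes tested (brown) and all 12793 genes tested (grey). At the dotted line, 1.2-fold, the brown curve lies above the grey one, and it ends at 0.52, the change of NPC2. The x axis stops at 1.

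**Figure D2:**
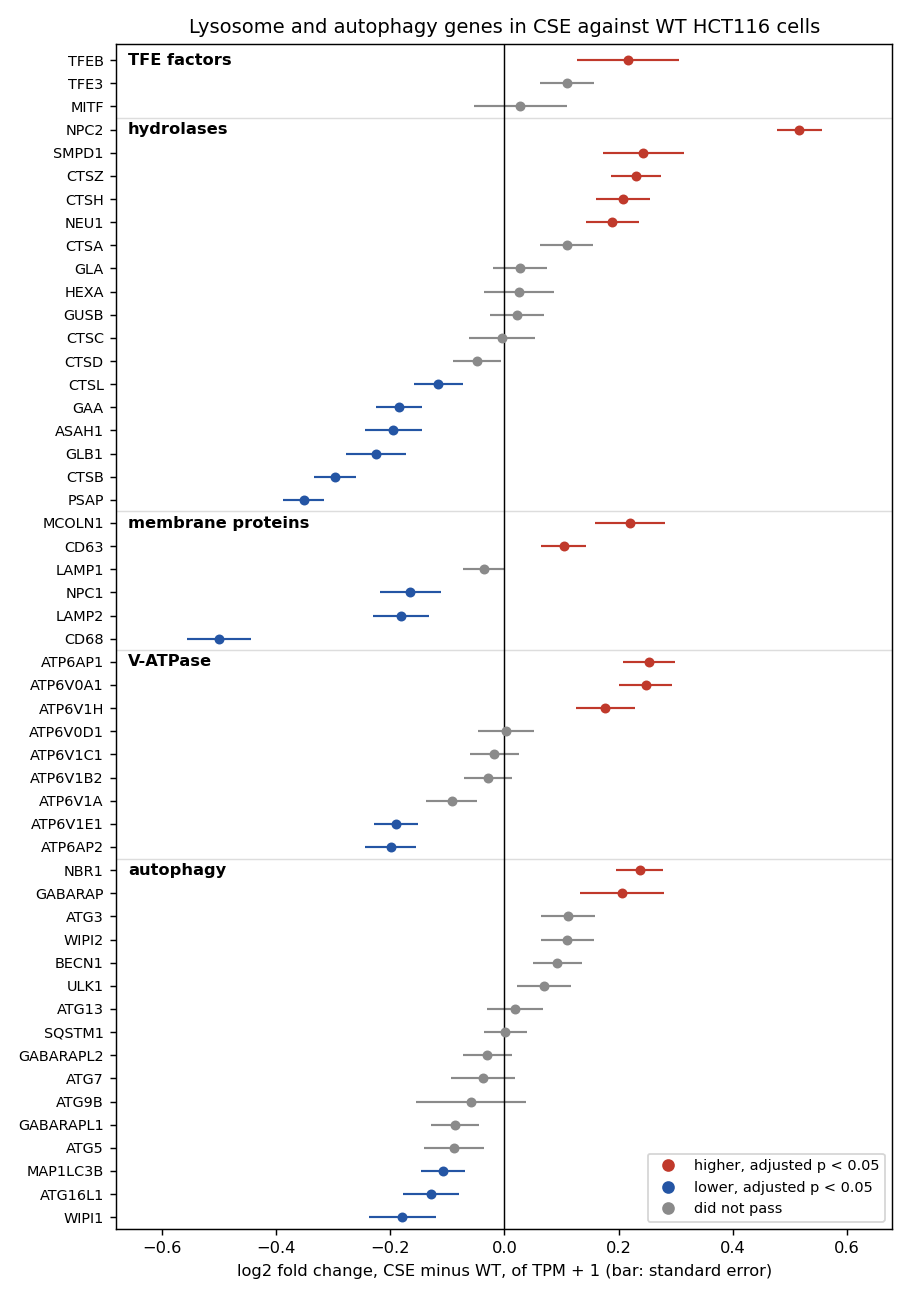
Log2 fold change of TPM + 1, CSE minus WT, with its standard error (x axis) for each of the 51 genes tested, ordered by change within its group. Red genes were higher, blue genes lower and grey genes did not pass the test. Every group other than the 3 TFE factors holds both red and blue genes.

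TFEB was the only one of the 3 TFE factors to pass the test, and by a narrow margin. TFEB, the factor best known for switching on lysosome genes, was at 4.26, 5.16 and 4.62 TPM in the CSE samples, against 4.02, 4.37 and 3.31 TPM in the WT samples (log2 fold change 0.22 with SE 0.08903; limma adjusted p = 0.0482). The groups overlapped, since CSE replicate 1 lay below WT replicate 2. TFE3, its close relative, was higher in abundance at 37.5, 39.1 and 36.9 TPM in the CSE samples, against 36.6, 34.3 and 34.1 TPM in the WT samples (log2 fold change 0.11 with SE 0.0478; limma adjusted p = 0.0607). Its groups did not overlap, but it did not pass. MITF, the family member best known from pigment cells, was at 5.43, 5.0 and 4.85 TPM in the CSE samples, against 4.89, 5.65 and 4.44 TPM in the WT samples (log2 fold change 0.03 with SE 0.0817; limma adjusted p = 0.797), with overlapping groups. By mean level, TFE3 stood above MITF and TFEB, which were close to each other. The call of TFEB was lost without CSE replicate 2 (limma adjusted p = 0.187), without CSE replicate 3 (0.0793), without WT replicate 1 (0.0876) and without WT replicate 3 (0.276). Without WT replicate 3 the log2 fold change of TFEB was 0.13. TFE3 passed without CSE replicate 3 (limma adjusted p = 0.0277) and without WT replicate 1 (0.0309). Activity of these factors is set by their location in the cell, which RNA levels do not measure.

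The promoters show which members carry the letters that TFE factors bind. RefSeq windows of 300 bases (250 before and 50 after the gene start, GRCh38.p14) were found for 43 of the 52 genes. CTSB, HEXA, PSAP, ASAH1, LAMP2, ATP6V1A, ATP6V1B2, ATP6V1C1 and ATP6V1H had no window. CACGTG, which reads the same on both strands, was in 9 of the 43 windows (20.9%). It was in 10.1% of the 10303 windows of genes tested and in 7.43% of all 27305 windows. The longer TCACGTGA, which contains it, was in 6 of the 43 (14.0%), and in 1.91% of the windows of genes tested.

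The letters were found among members of every outcome. CACGTG was in 3 of the 12 windows of members that were higher in CSE (MCOLN1, NEU1 and CD63). It was in 1 of the 10 windows of members that were lower (GAA) and in 5 of the 20 windows of members that did not pass (ATG3, ATP6V0D1, CTSA, CTSD and LAMP1). No test of these counts was made. The windows of the called members that hold it, and of LAMP1, which held the most copies (6), are printed 5′ to 3′ on the strand of the gene, with CACGTG in capitals. In MCOLN1 the copies began 41 and 14 bases before the RefSeq start, in GAA 76 and 31 bases, in NEU1 126 bases and in CD63 180 bases before it. In the GENCODE 29 annotation CD63 runs from 55725323 to 55729707, so its whole window lies inside the gene.
MCOLN1 (chr19:7522374-7522673, plus strand): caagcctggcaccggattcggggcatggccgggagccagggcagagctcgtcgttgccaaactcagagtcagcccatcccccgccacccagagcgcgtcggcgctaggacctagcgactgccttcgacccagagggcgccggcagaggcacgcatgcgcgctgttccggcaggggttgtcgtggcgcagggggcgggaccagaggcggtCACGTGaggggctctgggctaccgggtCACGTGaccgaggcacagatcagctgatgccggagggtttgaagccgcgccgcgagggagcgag
NEU1 (chr6:31862772-31863071, minus strand): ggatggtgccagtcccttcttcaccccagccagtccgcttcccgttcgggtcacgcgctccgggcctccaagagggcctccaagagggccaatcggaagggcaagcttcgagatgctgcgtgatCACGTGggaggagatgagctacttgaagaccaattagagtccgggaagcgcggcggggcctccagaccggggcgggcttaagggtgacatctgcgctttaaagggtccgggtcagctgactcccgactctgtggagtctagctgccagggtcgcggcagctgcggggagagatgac
CD63 (chr12:55728960-55729259, minus strand): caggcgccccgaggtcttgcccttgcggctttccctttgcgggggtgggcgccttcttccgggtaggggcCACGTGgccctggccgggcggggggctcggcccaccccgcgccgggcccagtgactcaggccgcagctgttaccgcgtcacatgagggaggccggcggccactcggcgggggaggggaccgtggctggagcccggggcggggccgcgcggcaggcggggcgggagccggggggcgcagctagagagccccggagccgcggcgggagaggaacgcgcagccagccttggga
GAA (chr17:80101331-80101630, plus strand): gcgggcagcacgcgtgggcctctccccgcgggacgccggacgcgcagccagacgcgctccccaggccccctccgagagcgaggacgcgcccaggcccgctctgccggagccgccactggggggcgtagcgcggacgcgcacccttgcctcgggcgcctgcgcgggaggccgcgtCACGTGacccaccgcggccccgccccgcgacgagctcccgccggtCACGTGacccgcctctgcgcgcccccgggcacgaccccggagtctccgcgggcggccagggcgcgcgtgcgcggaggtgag
LAMP1 (chr13:113296989-113297288, plus strand): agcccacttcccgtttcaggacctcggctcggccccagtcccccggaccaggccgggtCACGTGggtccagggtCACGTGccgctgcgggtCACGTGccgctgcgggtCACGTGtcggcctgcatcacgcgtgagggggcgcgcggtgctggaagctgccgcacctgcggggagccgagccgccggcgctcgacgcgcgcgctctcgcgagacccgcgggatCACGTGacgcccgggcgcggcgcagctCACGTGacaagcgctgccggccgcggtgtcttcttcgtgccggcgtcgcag

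Among the hydrolases and their cofactors, NPC2 rose the most and PSAP fell the most, and neither is itself an enzyme. Of the 17 genes, 5 were higher (NPC2, SMPD1, CTSZ, CTSH and NEU1), 6 were lower (PSAP, CTSB, GLB1, ASAH1, GAA and CTSL) and 6 did not pass. The share called was 64.7%, beside 50.1% of all genes tested. Both directions held proteases and enzymes that cut sugars or lipids. The median log2 fold change was 0.02.

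NPC2 encodes the lumenal protein that hands cholesterol to the membrane protein NPC1 for export from the lysosome (ENSG00000119655, chromosome 14, 74476192 to 74494177, minus strand; positions here are GENCODE 29 on GRCh38). It was at 138, 139 and 143 TPM in the CSE samples, against 96.8, 97.05 and 98.5 TPM in the WT samples. The groups were far apart relative to their spread, a 1.44-fold rise (log2 fold change 0.52 with SE 0.0387; limma adjusted p = 5.48e-10). NPC2 shares 458 bases with ISCA2 on the other strand, which was at 19.4 to 20.7 TPM in CSE and 15.7 to 17.5 TPM in WT. The part of ISCA2 reads in the NPC2 value was not tested.

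PSAP encodes prosaposin, which is cut into the saposins that present lipids to lysosomal enzymes (ENSG00000197746, chromosome 10, 71816298 to 71851375, minus strand). It was the most abundant of the 52 genes, at 878, 887 and 899.7 TPM in the CSE samples, against 1149.6, 1132 and 1119.8 TPM in the WT samples. Every CSE sample lay below every WT sample, and the gene was 1.28-fold lower in CSE (log2 fold change -0.35 with SE 0.0353; limma adjusted p = 4.36e-08). PSAP alone made up 42.1 to 42.9% of the summed TPM of the 17 genes in CSE, against 48.1 to 48.3% in WT. That sum was 2086, 2092 and 2099.6 TPM in the CSE samples, against 2391, 2341 and 2316 TPM in the WT samples. Without PSAP it was 1208, 1206 and 1199.9 TPM in the CSE samples, against 1241, 1209 and 1196 TPM in the WT samples, with overlapping groups.

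The cathepsins, the main proteases of the lysosome, moved in opposite directions. CTSB, a cysteine protease often secreted by tumour cells, was at 213, 213 and 204 TPM in the CSE samples, against 262, 258 and 255 TPM in the WT samples, 1.23-fold lower in CSE (log2 fold change -0.30 with SE 0.0372; limma adjusted p = 1.03e-06; ENSG00000164733, chromosome 8, 11842524 to 11869448, minus strand). CTSZ, a carboxypeptidase, was at 142, 141 and 156 TPM in the CSE samples, against 129, 126 and 119 TPM in the WT samples, 1.18-fold higher (log2 fold change 0.23 with SE 0.0445; limma adjusted p = 0.000196). Neither gene's groups overlapped. The aminopeptidase gene CTSH rose as well (33.6 ± 1.08 TPM in CSE and 28.99 ± 0.5297 TPM in WT, SD, n = 3 each; log2 fold change 0.21, limma adjusted p = 0.00109), and CTSL, an endopeptidase, fell by 0.12 on the log2 scale (90.6 ± 3.97 TPM in CSE and 98.3 ± 2.701 TPM in WT, SD, n = 3 each; log2 fold change -0.12, limma adjusted p = 0.0286). The CTSL call was lost without CSE replicate 1 (limma adjusted p = 0.0697), without CSE replicate 2 (0.173), without WT replicate 1 (0.1) and without WT replicate 2 (0.07). The aspartic protease gene CTSD, the dipeptidyl peptidase gene CTSC and the carboxypeptidase gene CTSA did not pass, with log2 fold changes of -0.05, -0.0046 and 0.11.

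Enzymes of lipid and sugar breakdown also split. SMPD1, the acid sphingomyelinase that cuts sphingomyelin to ceramide, was at 7.86, 8.78 and 8.68 TPM in the CSE samples, against 7.14, 7.45 and 6.35 TPM in the WT samples (log2 fold change 0.24 with SE 0.0716; limma adjusted p = 0.00741). ASAH1, the acid ceramidase that cuts ceramide further, went the other way (38.5 ± 1.92 TPM in CSE and 44.2 ± 2.03 TPM in WT, SD, n = 3 each; log2 fold change -0.19, limma adjusted p = 0.00265). SMPD1 is the rarest of the 17, and without WT replicate 3 it no longer passed (limma adjusted p = 0.0583). The sialidase gene NEU1 rose (63.4 ± 2.79 TPM in CSE and 55.5 ± 2.41 TPM in WT, SD, n = 3 each; log2 fold change 0.19, limma adjusted p = 0.00197). GLB1, the beta-galactosidase behind the senescence stain, fell (47.5 ± 4.03 TPM in CSE and 55.6 ± 1.55 TPM in WT, SD, n = 3 each; log2 fold change -0.23, limma adjusted p = 0.00124), as did GAA, which breaks down glycogen (183 ± 6.73 TPM in CSE and 208 ± 6.301 TPM in WT, SD, n = 3 each; log2 fold change -0.18, limma adjusted p = 0.00061). The NEU1, GLB1 and CTSA proteins form a complex in the lysosome, and CTSA did not pass (79.6 ± 4.21 TPM in CSE and 73.8 ± 3.17 TPM in WT, SD, n = 3 each; limma adjusted p = 0.0567). The glycosidase genes GLA, GUSB and HEXA did not pass either, with log2 fold changes of 0.02 to 0.03.

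Most lysosomal membrane genes passed the test, in both directions, and CD68 changed the most. Of the 6 genes 2 were higher (MCOLN1 and CD63), 3 were lower (CD68, LAMP2 and NPC1) and 1, LAMP1, did not pass. The share called was 83.3%, beside 50.1% of all genes tested. The median log2 fold change was -0.10. CD68 encodes a heavily glycosylated protein of the LAMP family that is widely used as a macrophage marker (ENSG00000129226, chromosome 17, 7579467 to 7582113, plus strand). It was at 12.7, 12.1 and 11.7 TPM in the CSE samples, against 17.8, 17.8 and 17.1 TPM in the WT samples, 1.45-fold lower with no overlap (log2 fold change -0.50 with SE 0.0567; limma adjusted p = 2.59e-07). The 6 macrophage and leukocyte markers summed to 1.1 to 1.27 TPM in CSE and 1.61 to 2.72 TPM in WT, and the pan-leukocyte gene PTPRC was at 0 to 0.03 TPM. Their part in the CD68 difference was not tested.

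LAMP1 and LAMP2 coat the inner face of the lysosomal membrane. LAMP1 was the most abundant gene of this group at 246, 250.4 and 243 TPM in the CSE samples, against 261, 247 and 249.9 TPM in the WT samples (log2 fold change -0.04 with SE 0.0374; limma adjusted p = 0.44), with overlapping groups. It passed as lower under quantile normalization (limma adjusted p = 0.00607) and with mitochondrially encoded genes left out (0.0141). LAMP2 was at 38.1, 37.7 and 34.2 TPM in the CSE samples, against 42.2, 41.7 and 41.2 TPM in the WT samples (log2 fold change -0.18 with SE 0.0491; limma adjusted p = 0.00401), lower in every CSE sample. CD63, a tetraspanin of late endosomes and exosomes, was at 162, 158 and 162 TPM in the CSE samples, against 155, 149.6 and 144 TPM in the WT samples (log2 fold change 0.10 with SE 0.0391; limma adjusted p = 0.0321). Its call was lost without CSE replicate 1 (limma adjusted p = 0.112), without WT replicate 2 (0.0915) and without WT replicate 3 (0.13), and with it the count of higher genes fell to 1 of 6. CD63 had a log2 fold change of 0.05 under quantile scaling and of 0.05 when mitochondrially encoded genes were dropped, and passed in neither. MCOLN1, the calcium channel TRPML1 that can activate TFEB through calcineurin, was at 20.5, 23.9 and 21.1 TPM in the CSE samples, against 19.6, 17.4 and 18.7 TPM in the WT samples (log2 fold change 0.22 with SE 0.0613; limma adjusted p = 0.00496), with no overlap between the groups.

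NPC1, which takes cholesterol from NPC2 and passes it through the membrane, was slightly lower while NPC2 was higher. It was at 42.5, 42.9 and 36.6 TPM in the CSE samples, against 46.3, 45.5 and 45.04 TPM in the WT samples (log2 fold change -0.16 with SE 0.0538; limma adjusted p = 0.0143). CSE replicate 3 was the lowest, and the call was lost without CSE replicate 3 (limma adjusted p = 0.0553) and without WT replicate 1 (0.0631). NPC1 had a log2 fold change of -0.09 without CSE replicate 3 and of -0.15 without WT replicate 1. The ratio of NPC2 to NPC1 TPM, chosen after the values were seen, was 3.23, 3.24 and 3.92 in the CSE samples, against 2.09, 2.14 and 2.19 in the WT samples. NPC1 overlaps RMC1 on the other strand over 31.7% of its length. RMC1 was also lower, at 34.3 to 36.4 TPM in CSE, against 43.4 to 46.0 TPM in WT. The library protocol's strandedness is not given in the sources used, and the part of RMC1 reads in the NPC1 value was not tested.

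**Figure D3:**
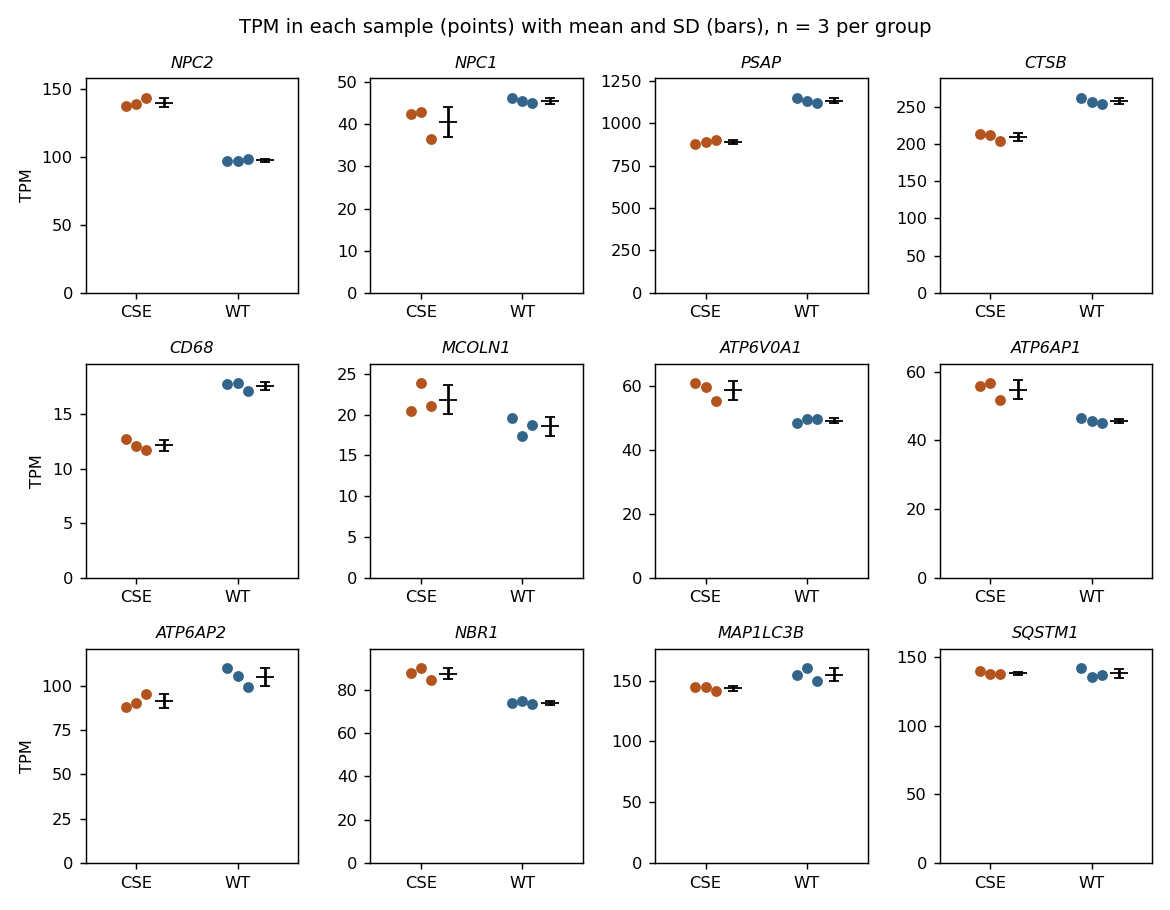
TPM (y axis, from 0) in each of the 3 CSE and 3 WT samples for 12 of the genes, with the mean and SD as a bar beside the points. NPC2 is higher in CSE and PSAP, CTSB and CD68 are lower with no overlap, while SQSTM1 lies at 135 to 142 TPM in all 6 samples.

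Subunits of the proton pump did not move as one complex. Of the 10 genes, 9 could be tested, of which 3 were higher (ATP6AP1, ATP6V0A1 and ATP6V1H), 2 were lower (ATP6AP2 and ATP6V1E1) and 4 did not pass. The share called was 55.6%, close to the 50.1% of all genes tested. The median log2 fold change was -0.02. In the V0 sector, ATP6V0A1, an isoform of subunit a which carries the proton path and directs the pump to its membrane, was at 60.9, 59.7 and 55.1 TPM in the CSE samples, against 48.3, 49.7 and 49.5 TPM in the WT samples (log2 fold change 0.25 with SE 0.04605; limma adjusted p = 0.000136; ENSG00000033627, chromosome 17, 42458844 to 42522611, plus strand). ATP6V0D1, which links the rotor to the membrane ring, did not pass (log2 fold change 0.0030). ATP6V0C, the proteolipid of that ring, did not pass the filter: it was at 0.29, 0.56 and 0.36 TPM in the CSE samples, against 0.42, 0.6 and 0.28 TPM in the WT samples. On the same strand of chromosome 16, 1 longer locus covers all of the annotated gene and another covers 98.5% of it. Both are listed at 0 in all 6 libraries, and the part of this overlap in the low value was not tested.

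Among the members in the V1 sector, neither gene of the catalytic core passed the test, and a stalk gene fell. ATP6V1B1, a pump gene outside the members, was higher and is given below. ATP6V1A and ATP6V1B2, which form the ATP-hydrolysing ring, did not pass (log2 fold changes -0.09 and -0.03), nor did ATP6V1C1, a stalk subunit that regulates assembly (-0.02). ATP6V1E1, a peripheral stalk subunit, was the most abundant of the pump genes among the members. It was at 153, 155 and 164 TPM in the CSE samples, against 179.9, 176 and 183 TPM in the WT samples, 1.14-fold lower in CSE (log2 fold change -0.19 with SE 0.0393; limma adjusted p = 0.0004). ATP6V1H, which inhibits ATP hydrolysis by V1 once it has left the membrane, was at 28.7, 29.6 and 28.6 TPM in the CSE samples, against 25.7, 26.8 and 24.02 TPM in the WT samples (log2 fold change 0.18 with SE 0.0515; limma adjusted p = 0.00698). Without WT replicate 3 it missed the threshold (limma adjusted p = 0.0515).

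The accessory proteins ATP6AP1 and ATP6AP2, which both help to assemble the pump, moved in opposite directions. ATP6AP1 was at 55.9, 56.7 and 51.7 TPM in the CSE samples, against 46.4, 45.7 and 45.1 TPM in the WT samples, 1.197-fold higher in CSE (log2 fold change 0.25 with SE 0.04604; limma adjusted p = 0.000104). ATP6AP2, also known as the prorenin receptor, was at 88.1, 90.0 and 95.5 TPM in the CSE samples, against 109.8, 106 and 99.3 TPM in the WT samples, 1.15-fold lower (log2 fold change -0.20 with SE 0.04502; limma adjusted p = 0.000913). Neither gene's groups overlapped.

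In 2 subunit families the share of the gene that is among the 52 did not overlap between the groups, and in a further one it did. These shares were chosen after the values were seen and carry no test. Of the summed TPM of the 4 subunit a genes, ATP6V0A1 made up 51.9, 52.1 and 50.8 percent in the CSE samples, against 42.9, 45.7 and 44.1 percent in the WT samples. TCIRG1, the isoform best known from osteoclasts, made up 40.6 to 42.1 percent in CSE and 43.9 to 47.2 percent in WT. By mean share ATP6V0A1 led in CSE (51.6 against 41.2 percent) and TCIRG1 in WT (45.9 against 44.2 percent), though not in WT replicate 2. The sum itself was 109 to 117 TPM in CSE and 109 to 113 TPM in WT, with overlapping groups.
For subunit C, ATP6V1C2, the copy of restricted tissue range, made up 12.96, 14.3 and 12.2 percent in the CSE samples, against 22.2, 21.8 and 21.9 percent in the WT samples. ATP6V1C1 was 53.8 ± 0.634 TPM in CSE and 54.5 ± 1.16 TPM in WT, SD, n = 3 each, with overlapping groups. ATP6V1C2 was 1.88-fold lower (7.92, 9.08 and 7.44 TPM in the CSE samples, against 15.8, 15.3 and 14.9 TPM in the WT samples; log2 fold change -0.84 with SE 0.0673; limma adjusted p = 1.52e-09). For subunit E, ATP6V1E1 made up 95.6 to 95.99 percent in CSE and 95.3 to 95.96 percent in WT, with overlapping groups. In the LAMP family, LAMP1, LAMP2, LAMP3 and CD68, the share of LAMP3 was 2.27 to 2.405 percent in CSE and 4.75 to 4.87 percent in WT.

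**Figure D4:**
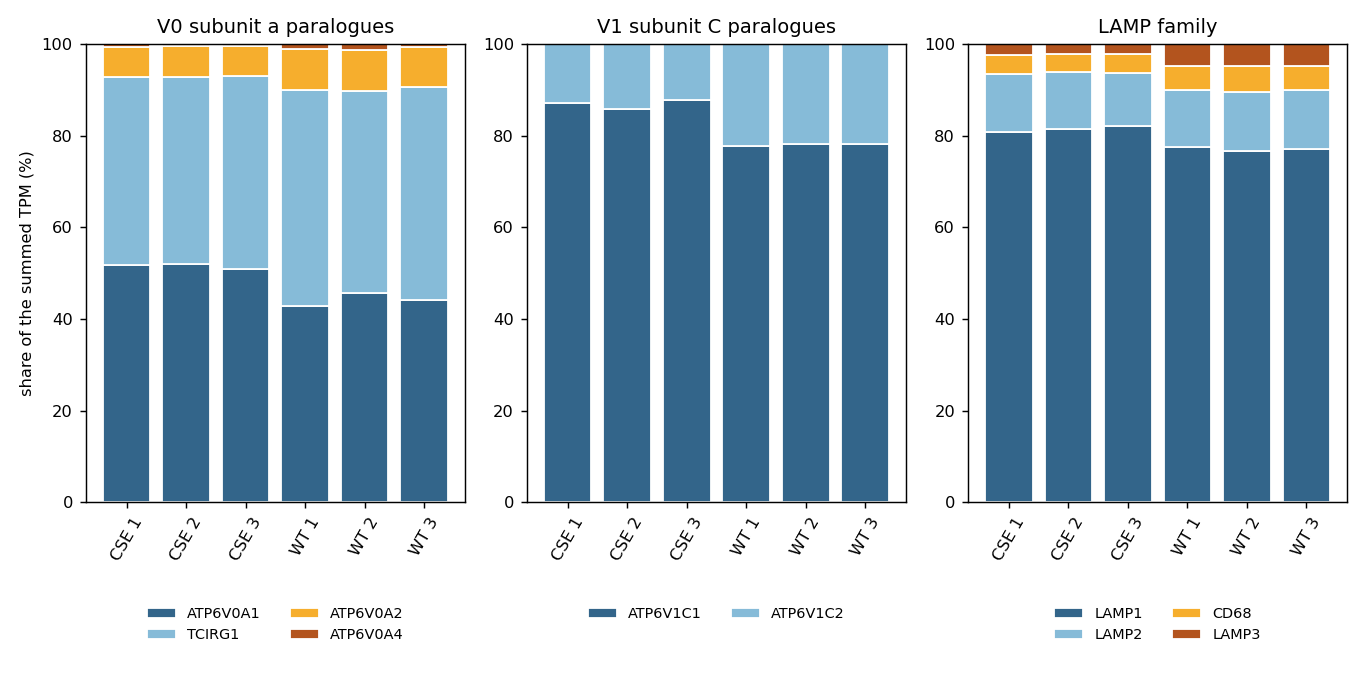
Share of the summed TPM (y axis, %) held by each gene of 3 families in every sample: the V0 subunit a genes, the V1 subunit C genes and the LAMP family. ATP6V1C2 holds 12.2 to 14.3 percent of its family in the CSE samples and 21.8 to 22.2 percent in the WT samples.

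Most of the autophagy genes did not pass the test. Of 16 genes, 2 were higher in CSE (NBR1 and GABARAP), 3 were lower (WIPI1, ATG16L1 and MAP1LC3B) and 11 did not pass, with a median log2 fold change of -0.01. The share called, 31.2%, lay below the 50.1% of all genes tested, and that difference was not tested. NBR1 was the only one of the 5 called in every alternative setting.

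The cargo receptors differed from each other. NBR1, which tethers ubiquitin-tagged cargo to LC3 and GABARAP proteins, was at 87.6, 89.8 and 84.5 TPM in the CSE samples, against 73.8, 74.9 and 73.1 TPM in the WT samples, 1.18-fold higher in CSE (log2 fold change 0.24 with SE 0.0412; limma adjusted p = 6.37e-05; ENSG00000188554, chromosome 17, 43170481 to 43211689, plus strand). SQSTM1 encodes p62, the related receptor whose gene is a target of NRF2 and whose protein builds up when autophagy stalls. It was at 139.8, 138 and 138 TPM in the CSE samples, against 142, 135 and 137 TPM in the WT samples (log2 fold change 0.0017 with SE 0.0383; limma adjusted p = 0.975), with overlapping groups, a gene named here after its values were seen.

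Of the proteins that are joined to the autophagic membrane, MAP1LC3B was slightly lower and GABARAP slightly higher. MAP1LC3B, the LC3 protein used as the standard marker of autophagosomes, was the most abundant of the 16 at 145, 145 and 142 TPM in the CSE samples, against 154, 160.3 and 150.0 TPM in the WT samples (log2 fold change -0.11 with SE 0.0391; limma adjusted p = 0.0265). Its groups did not overlap, but the call was lost without CSE replicate 1 (limma adjusted p = 0.0667), without CSE replicate 2 (0.054) and without WT replicate 2 (0.176). Its near-identical copy MAP1LC3B2, with which it can exchange reads, was at 2.17, 3.67 and 3.56 TPM in the CSE samples, against 3.25, 2.64 and 2.61 TPM in the WT samples. FBXO31 overlaps 39.2% of MAP1LC3B on the other strand. FBXO31 was also lower, at 27.01 to 29.17 TPM in CSE, against 30.81 to 31.65 TPM in WT. The part of FBXO31 reads in the MAP1LC3B value was not tested. GABARAP was at 20.1, 20.02 and 21.2 TPM in the CSE samples, against 18.4, 19.9 and 14.8 TPM in the WT samples (log2 fold change 0.21 with SE 0.0736; limma adjusted p = 0.0243), where WT replicate 3 was the lowest sample. The GABARAP call was lost without CSE replicate 3 (limma adjusted p = 0.102) and without WT replicate 3 (0.252). The log2 fold change was 0.09 without WT replicate 3. On the same strand, another locus covers 85% of GABARAP and is listed at 0 in every library. The part of this overlap in the GABARAP value was not tested. GABARAPL1 and GABARAPL2 did not pass (log2 fold changes -0.09 and -0.03).

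In the machinery that starts and extends the membrane, 2 genes fell. Without passing the test, 4 genes lay higher in every CSE sample and ATG7 lay lower in every one. Over all 16 autophagy genes, the groups did not overlap for 6 with CSE above and for 5 with CSE below (68.8%), beside 57.4% of all genes tested. WIPI1, which reads phosphatidylinositol 3-phosphate on the growing membrane, was at 36.8, 34.8 and 29.8 TPM in the CSE samples, against 38.8, 37.9 and 37.97 TPM in the WT samples (log2 fold change -0.18 with SE 0.0589; limma adjusted p = 0.015), and its call was lost without CSE replicate 3 (limma adjusted p = 0.0704) and without WT replicate 1 (0.0706). Its log2 fold change was -0.09 in the first of these fits and -0.17 in the other. ATG16L1, which places the LC3-joining enzyme on that membrane, was at 29.9, 30.8 and 28.2 TPM in the CSE samples, against 32.3, 32.8 and 32.3 TPM in the WT samples (log2 fold change -0.13 with SE 0.0489; limma adjusted p = 0.033). It lost the call without CSE replicate 1 (limma adjusted p = 0.0693), without CSE replicate 3 (0.0642), without WT replicate 1 (0.0577), without WT replicate 2 (0.11) and without WT replicate 3 (0.0627). The groups of both genes did not overlap. ATG3, the enzyme that passes LC3 to its lipid, was at 40.4, 43.9 and 41.8 TPM in the CSE samples, against 37.8, 39.96 and 38.7 TPM in the WT samples and did not pass (log2 fold change 0.11 with SE 0.0473; limma adjusted p = 0.0562). It did pass with median-of-ratios scaling (limma adjusted p = 0.0311), with the replicate number as a block (0.0395) and without CSE replicate 3 (0.049). WIPI2, BECN1 and ULK1 also had every CSE sample above every WT sample, with log2 fold changes of 0.11, 0.09 and 0.07 and limma adjusted p of 0.0553, 0.0765 and 0.229. For WIPI2 the gap was narrow, with the lowest CSE sample at 45.57 TPM and the highest WT sample at 45.56 TPM. WIPI2 is a relative of WIPI1, BECN1 belongs to the lipid kinase complex and ULK1 is the kinase that starts the process. ATG13, the partner of ULK1, ATG5, ATG7 and the lipid scramblase gene ATG9B did not pass either, with log2 fold changes of -0.09 to 0.02. Of these, ATG7 lay lower in every CSE sample, at 12.71 to 13.06 TPM, against 13.2 to 13.48 TPM in WT (log2 fold change -0.04). Without CSE replicate 1, CSE replicate 3, WT replicate 1 or WT replicate 2, 1 of the 16 was lower, and without WT replicate 3, 1 was higher.

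The wider pathway held larger changes than the 52 genes. From 163 further lysosome, pump, autophagy, sorting and mTORC1 genes, chosen from general knowledge, 155 were tested, of which 29 were higher, 45 lower and 81 did not pass. That is 47.7% called, beside 50.1% of all genes tested, with a median log2 fold change of -0.05. With mitochondrially encoded genes left out, 23 were higher and 66 lower. Called changes of at least 1.2-fold numbered 29 (18.7%), beside 23.5% of all genes tested.

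Of 33 other hydrolases, 6 were higher and 10 lower (48.5% called, beside 50.1% of all genes tested). The fucosidase gene FUCA1 (73.7 TPM in CSE, against 54.9 TPM in WT; log2 fold change 0.42, limma adjusted p = 4.83e-08) and the acid phosphatase gene ACP2 (log2 fold change 0.40) rose the most. The iduronidase gene IDUA (-0.36) and the mannosidase gene MAN2B1 (-0.33) fell the most. Of 23 other membrane proteins, 4 were higher and 9 lower (56.5% called). LAMP3, a LAMP protein of restricted tissue range, was at 7.31, 7.0 and 6.71 TPM in the CSE samples, against 16.0, 15.7 and 15.7 TPM in the WT samples, 2.25-fold lower (log2 fold change -1.07 with SE 0.0606; limma adjusted p = 6.25e-12), the largest change in these lists. OSTM1, the partner subunit of a lysosomal chloride transporter, was lower (-0.51), while GLMP (0.40) and the heparan sulphate acetyltransferase gene HGSNAT (0.25) were higher.

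Of 19 other pump genes, 5 were higher and 6 lower (57.9% called, beside 50.1% of all genes tested). ATP6V1C2, given above, and ATP6V0A2 (7.61 TPM in CSE, against 9.91 TPM in WT; log2 fold change -0.34, limma adjusted p = 0.00013) fell the most. The largest rises were of genes near the filter, ATP6V1G2 (2.3 TPM in CSE, against 1.52 TPM in WT; log2 fold change 0.39) and ATP6V1B1 (1.797 TPM in CSE, against 1.22 TPM in WT; 0.33). ATP6V1B1 was not called without WT replicate 2 (limma adjusted p = 0.0542).

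Of 32 other autophagy core genes, 4 were higher and 9 lower (40.6% called, beside 50.1% of all genes tested). ATG4B, the protease that trims LC3 before it is joined to lipid, was lower (56.3 TPM in CSE, against 71.8 TPM in WT; log2 fold change -0.34, limma adjusted p = 2.83e-06), and so was PIK3R4, the scaffold of the autophagy lipid kinase (-0.32). ATG10, an enzyme that joins ATG12 to ATG5 (0.36), and VAMP8, a fusion protein of late endosomes and lysosomes (0.36), were higher. Of 15 other receptors, 5 were higher and 4 lower (60% called). The mitophagy receptor genes BNIP3 (30.1 TPM in CSE, against 20.4 TPM in WT; log2 fold change 0.54, limma adjusted p = 1.24e-08) and BNIP3L (70.5 TPM in CSE, against 61.2 TPM in WT; log2 fold change 0.20) led the rises. TAX1BP1 (-0.14) and OPTN (-0.11), receptors for tagged cargo, led the falls. TAX1BP1 lost its call without WT replicate 2 (limma adjusted p = 0.0794), and OPTN on leaving out any 1 of the 6 libraries (0.0569 to 0.115).

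Among sorting genes the share called was 30% of 10, and among control genes 39.1% of 23, beside 50.1% of all genes tested. Those differences were not tested. Of 10 genes of mannose 6-phosphate sorting, 0 were higher and 3 lower, led by the adaptor gene GGA3 (44.9 TPM in CSE, against 55.9 TPM in WT; log2 fold change -0.31, limma adjusted p = 8.68e-05) and the sorting receptor gene SORT1 (-0.30). Of 23 genes of mTORC1 and its lysosomal control, 5 were higher and 4 lower. RRAGB, a Rag GTPase that recruits mTORC1 to the lysosome (0.47), and DDIT4, an inhibitor of mTORC1 (717 TPM in CSE, against 569.8 TPM in WT; log2 fold change 0.33, limma adjusted p = 4.02e-07), rose the most. TSC1 (-0.28), which restrains mTORC1, and RPTOR (-0.22), its substrate-binding subunit, fell the most. RPTOR was at -0.15 without CSE replicate 3.

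**Figure D5:**
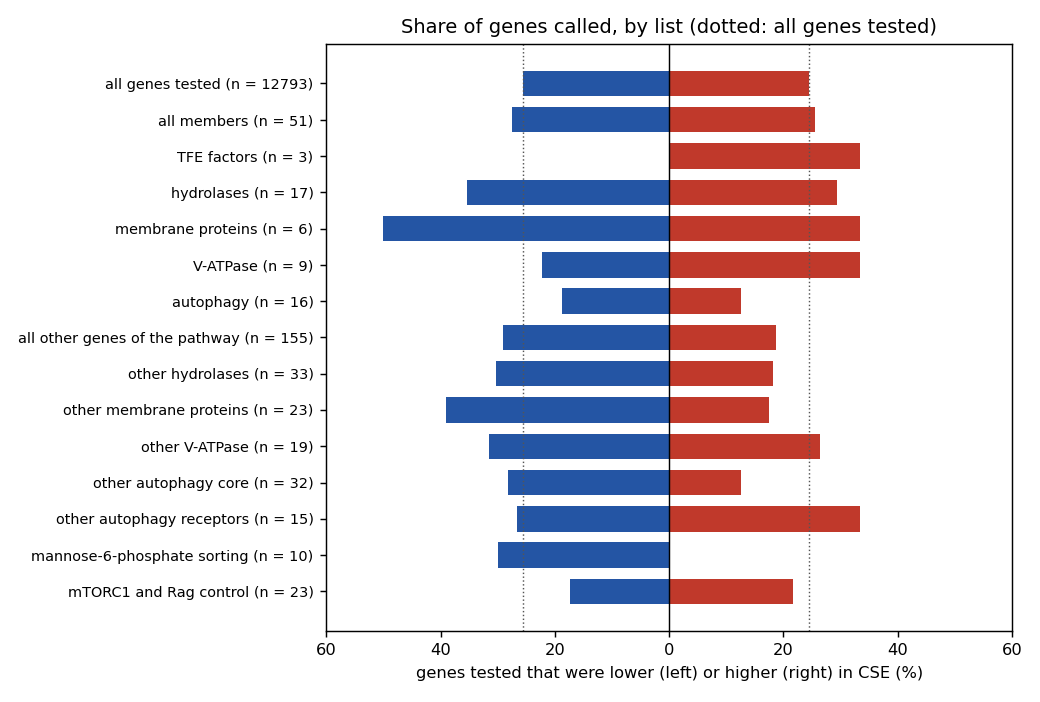
Share of tested genes (x axis, %) that were higher in CSE (red, right) or lower (blue, left) for all genes tested, for the 51 genes tested and their groups, and for the further lists, with the number tested beside each name. The dotted lines mark 24.5% higher and 25.6% lower over all genes tested, and the bars of all 51 genes end close to both.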

How the data were processed

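RNA-seq of 3 CSE treated and 3 WT HCT116 samples was used. The authors deposited 1 table of TPM per Ensembl gene. Per the submitters' processing notes, the tools included HISAT2 2.0, Trimmomatic 0.36, bedtools 2.26.0 and FastQC 0.11.2, with the GRCh38 build. No counting step, annotation or strandedness is given in the sources used. Symbols were matched for 20148 of 20263 IDs and GENCODE 29 positions for 20224.

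From the TPM, log2(TPM + 1) was tested with limma 3.58.1 (trended prior, R 4.3.3), CSE minus WT, over 12793 genes (TPM of 1 or more in 3 or more libraries), with Benjamini-Hochberg adjustment over all of them and a threshold of 0.05. A log2 fold change on this scale understates the change of low genes, and folds in the text are ratios of mean TPM. TPM keep no depth, so no counting intervals are given. The fit was tested on simulated data. Promoter sequences are RefSeq's (GRCh38.p14). The members and lists were chosen with earlier results of these data known. Values in every sample are given for the TFE factors and, in each other group, for the 5 genes with the largest change and the most abundant one. From each further list, the 2 called genes with the largest rise and the 2 with the largest fall are named. SQSTM1, the gene family shares and the other genes given singly were chosen after their values were seen. Alternatives were the pseudocount, the filter, the scaling, the prior, the replicate block and leaving out each library.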

Additional observations from a re-analysis of the deposited data

How the results depend on the processing

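Of the 27 called genes of the 52, 17 passed in every alternative in which they were tested and 10 lost the call in at least 1. Single genes were followed for 32 of the 51 tested members, the called ones and those given by sample, and not for the other 19. Of their 479 results under alternatives, 416 kept direction and side of the threshold, 46 no longer passed, 9 passed newly and 8 changed sign; among 388 for the 26 further genes named for their large called changes, 379 kept both. Neither gene that changed sign passed the test. MITF was at -0.021 when mitochondrially encoded genes were dropped and ranged from -0.040 to 0.11 on leaving out single libraries. SQSTM1 was at -0.037 under quantile scaling and -0.056 when mitochondrially encoded genes were dropped, and ranged from -0.013 to 0.021 on leaving out single libraries.

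With mitochondrially encoded genes left out, the median log2 fold change was -0.058 for all genes, -0.056 for the members, -0.035 for hydrolases, -0.16 for membrane proteins, -0.075 for the V-ATPase, -0.072 for autophagy and -0.10 for the further genes; 0 TFE factors, 1 membrane gene and 1 autophagy gene were higher and 5 autophagy genes lower. With no trend in the prior, 9 members were lower, 0 TFE factors, 1 membrane gene and 1 autophagy gene were higher and 0 autophagy genes lower. TFE factors that were higher numbered 0 with a pseudocount of 0.1 or no filter, and 2 with median-of-ratios or quantile scaling. A filter on a mean TPM of at least 5 left out TFEB, at 4.29 TPM, and 0 of the other 2 were higher. Autophagy genes that were higher numbered 1 with no filter and 5 with median-of-ratios scaling, and 1 membrane gene was higher with quantile scaling. Rescaling without mitochondrially encoded genes raises the rest more in WT than in CSE. Those genes took 27% to 30.2% of the TPM in WT, against 25.5% to 25.8% in CSE. Beyond this rescaling and the filter, the cause of these shifts was not tested.

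On leaving out single libraries, members that were higher numbered 8 to 15, TFE factors 0 to 1, membrane genes 1 to 2 and autophagy genes 1 to 3, and autophagy genes that were lower 1 to 3. Over all genes tested, 2528 to 3536 were higher. The hydrolase median ran from -0.0097 to 0.024 and the autophagy median from -0.020 to 0.013. Replicate numbers share only a number: same-numbered samples had correlations of -0.0711, 0.015 and -0.0883 in their deviations. No sample correlated best with its own number. A fit with the replicate number as a block called 3188 genes higher and 3349 lower, 15 and 14 members, and 4 autophagy genes higher. Depth is unknown.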
